A study of Arabidopsis thaliana with 10 samples.

Results

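Seeds fathered by *suvh7-1 osd1* pollen were compared with seeds fathered by *osd1* pollen, to ask which transcripts move when the paternal copy of *SUVH7* is disrupted in a triploid seed. The groups, of 2 libraries each, were the triploid seeds called 3n *suvh7-1* (L*er* x *suvh7-1 osd1*), the triploid seeds called 3n (L*er* x *osd1*), 2 other triploid groups called 3n *adm-2* and 3n *peg2*, made with *adm-2 osd1* and *peg2 osd1* pollen, and the diploid seeds called 2n (L*er* x Col). All mothers were wild-type L*er* plants, so every seed with a mutant paternal allele also received intact maternal copies. The *osd1* mutation, shared by all 4 triploid groups, gives unreduced pollen and was brought into Col from Nossen by backcrossing, and *suvh7-1* is a single T-DNA insertion line. Each library came from the seeds of 20 siliques harvested at 6 days after pollination (DAP), whole seeds with endosperm, embryo and seed coat together. Of 33602 genes in the table, 18159 had a mean of at least 1 RPKM (reads scaled to gene length and to library size) over the 4 libraries of 3n *suvh7-1* and 3n, and these were tested.

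In a seed with an extra paternal genome the endosperm, the tissue that feeds the embryo, keeps dividing as free nuclei and fails to form cell walls, and the embryo then arrests. Imprinted genes are active from only 1 parental copy. *SUVH7* is a paternally expressed gene (*PEG*) of the endosperm and belongs to the SU(VAR)3-9 homologs, proteins with a SET domain that in several relatives methylates histone H3 and an SRA domain that binds methylated DNA. Endosperm that has formed walls goes on to be consumed while the embryo fills with storage protein and oil.

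*SUVH7* had 0.640 and 0.956 RPKM in the 3n *suvh7-1* libraries, against 3.09 and 3.16 RPKM in 3n, a log2 fold change of -1.87 ± 0.22 (SE, limma adjusted p = 4.78e-04). The low level was found in the libraries labelled *suvh7-1* and in the diploid seeds, which had 0.0883 and 0.133 RPKM, while 3n *adm-2* had 3.19 and 3.17 RPKM and 3n *peg2* 3.10 and 3.02 RPKM. *OSD1* (*AT3G57860*), a regulator of meiotic progression whose mutation is shared by both groups, had 2.57 and 3.03 RPKM in 3n *suvh7-1* and 1.91 and 1.38 RPKM in 3n (log2 fold change 0.75 ± 0.27, adjusted p = 0.124). Fold changes throughout are differences of means on the log2(RPKM + 0.1) scale, which understates the change of genes with low levels, and adjusted p values come from limma fitted to all 10 libraries. With 2 pools of seeds a group, the p values measure the spread between these pools.

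Summed RPKM ran from 700509 to 743974 over the 10 libraries, and replicates had Pearson's r of 0.990 to 0.996 on the log2 scale. The absolute read depth is unknown because the values are RPKM. Ribosomal RNA made up 9.24% to 17.3% of the sums. Defining markers of all the tissues that a seed holds were present: the 10 endosperm markers summed to 138 and 133 RPKM in 3n *suvh7-1* and to 180.2 and 193 RPKM in 3n, the 13 embryo markers to 136 and 151 RPKM against 89.4 and 68.8 RPKM, and the 16 seed coat markers to 3780 and 3827 RPKM against 3934 and 4158 RPKM. The imprinted gene *PHE1*, at 101 and 98.0 RPKM in 3n *suvh7-1* and 133 and 135 RPKM in 3n, made up most of the endosperm sum. In 2n it had 0.909 and 0.749 RPKM. In these bulk samples, fewer cells of a type and less RNA per cell cannot be told apart.

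By limma, 410 genes were higher and 412 were lower in 3n *suvh7-1* than in 3n (adjusted p under 0.05 and a log2 fold change past 1), which was 2.26% and 2.27% of the genes tested. All of them had no overlap between the libraries of the 2 groups, a state that 48.3% of all genes tested shared. The rank product method, which ranks genes within each pair of libraries and was the method of the study, called 90 genes higher (0.496%) and 106 lower (0.584%). Limma also called all 90 of the higher and 98.1% of the lower rank product genes, and these were 22.0% and 25.2% of its own calls. The median log2 fold change over all genes tested was -0.04. At a log2 fold change of at least 2, 110 genes were higher and 193 lower, and at one of at least 4, 12 were higher and 8 lower.

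**Figure D1:**
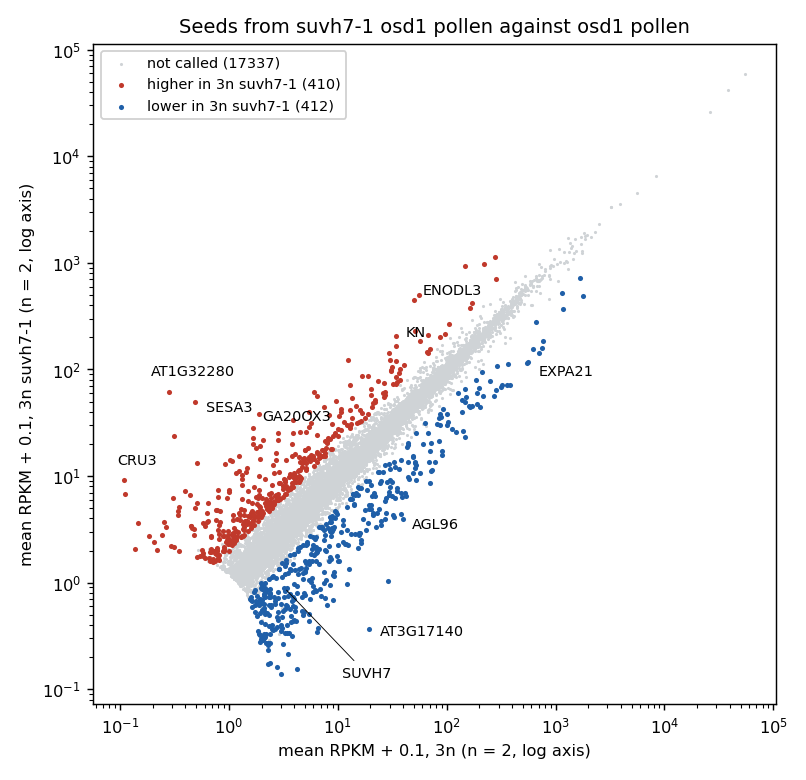
Mean RPKM + 0.1 of the 18159 genes tested in 3n *suvh7-1* (vertical) and in 3n (horizontal), both on log axes, each point a gene and n = 2 libraries a group. The 410 genes called higher (red) reach from storage genes such as *CRU3*, near 0 RPKM in 3n, to *ENODL3*, at 451 and 442 RPKM in 3n *suvh7-1*, and the 412 called lower (blue) include *SUVH7* itself.

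The direction differed between groups of genes. Of 23 tested members of the list of seed maturation, storage and oil body genes, 15 rose and 0 fell, and 5 of 24 cytokinesis genes rose. Lower calls were found in 6 of 13 tested *PEGs*, 8 of 19 tested genes of the M-alpha and M-gamma classes of type I MADS-box factors, 4 of 10 genes of endosperm growth, and 21 of 66 pectin methylesterases and their inhibitor superfamily. The rank product called fewer of them: 9 maturation genes, 0 cytokinesis genes, 0 *PEGs*, 1 M-gamma and 4 M-alpha genes, 1 endosperm growth gene and 11 pectin methylesterase superfamily genes, in the same directions. Because the filter used the mean over the 4 libraries, a gene near 0 in 1 group could pass it through the other, which shapes the shares called.

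**Figure D2:**
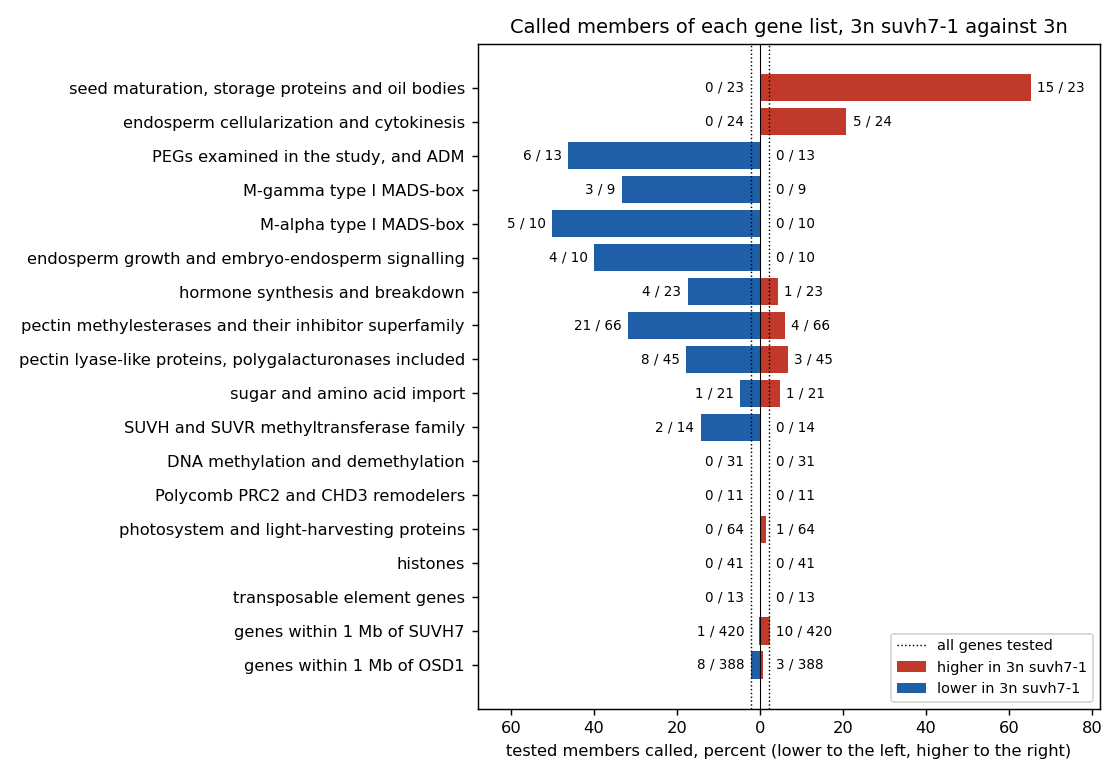
Percent of the tested members of each gene list called lower (blue, to the left) and higher (red, to the right) in 3n *suvh7-1* than in 3n, with the counts of called and tested members beside the bars and the shares over all genes tested (2.27% lower and 2.26% higher) as dotted lines. Maturation genes stand out on the right and *PEGs*, M-alpha MADS-box genes and pectin methylesterases on the left, while DNA methylation, Polycomb, histone and transposable element genes have no called member.

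Storage protein genes had the largest increases among the lists. The 2S albumins *SESA1* to *SESA4* and the 12S globulins (cruciferins) *CRA1*, *CRU2* and *CRU3* are the main storage proteins of the seed. *SESA3* had 35.9 and 63.9 RPKM in 3n *suvh7-1*, against 0.437 and 0.339 RPKM in 3n (log2 fold change 6.63 ± 0.50, adjusted p = 9.36e-05). *SESA2* had 15.2 and 32.3 RPKM against 0.0508 and 0.375 RPKM (6.38 ± 0.59, adjusted p = 1.71e-04). In both albumins the 3n *suvh7-1* libraries lay far above the 3n libraries. *CRU3* had 5.49 and 12.8 RPKM in 3n *suvh7-1* against 0.0208 RPKM in the first 3n library and a listed 0 in the second (6.27 ± 0.39, adjusted p = 4.12e-05). *CRU2* had 4.49 and 9.01 RPKM against 0.0229 RPKM and a listed 0 (5.87 ± 0.37, adjusted p = 4.16e-05). Because the 3n levels are so near 0, these sizes depend on the pseudocount: for *CRU3* the log2 fold change was 3.23 with a pseudocount of 1 and 8.90 with 0.01. *CRA1* (3.57), *SESA1* (4.05) and *SESA4* (3.80) rose as well. The albumins are close copies, with 82.6% to 90.2% identity between their gene sequences and identical runs of 23 to 49 bases, and their values may share some reads.

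The 2 libraries of 3n *suvh7-1* differed from each other, the second being higher for all 7 storage genes named above. These seeds also stood above the diploid seeds of the same age for part of them. *CRU3* was listed at 0.0157 and 0 RPKM in 2n, so that 3n *suvh7-1* was higher by 6.30 ± 0.39 on the log2 scale (adjusted p = 1.13e-06), and *SESA2* had 1.02 and 1.21 RPKM in 2n, 4.20 ± 0.59 below 3n *suvh7-1* (adjusted p = 3.05e-04). *SESA1*, with 9.97 and 7.86 RPKM in 2n, did not pass that test (-0.47 ± 0.43, adjusted p = 0.399). In 3n *adm-2* the levels were like those in 3n *suvh7-1*, at 9.45 and 9.34 RPKM for *CRU3*, and the difference was -0.16 (adjusted p = 0.790), whereas 3n *peg2* had 0.0337 and 0.0366 RPKM (difference 5.97, adjusted p = 5.81e-05).

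The promoters of storage genes carry the RY element, CATGCA, which the B3 factors LEC2, FUS3 and ABI3 bind. The 250 bases before the annotated start are shown for the 3 storage genes with the largest increase, from RefSeq TAIR10.1, 5′ to 3′ along the gene, with each CATGCA or its reverse complement TGCATG in capitals. *SESA2* (chr4:13609091-13609340, plus strand), *SESA3* (chr4:13611546-13611795, plus strand) and *CRU3* (chr4:14087306-14087555, plus strand) read:
SESA2: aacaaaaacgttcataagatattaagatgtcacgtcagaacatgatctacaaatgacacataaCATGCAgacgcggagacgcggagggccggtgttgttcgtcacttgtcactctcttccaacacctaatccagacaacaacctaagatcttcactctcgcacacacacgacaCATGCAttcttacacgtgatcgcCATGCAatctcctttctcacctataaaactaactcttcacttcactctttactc
SESA3: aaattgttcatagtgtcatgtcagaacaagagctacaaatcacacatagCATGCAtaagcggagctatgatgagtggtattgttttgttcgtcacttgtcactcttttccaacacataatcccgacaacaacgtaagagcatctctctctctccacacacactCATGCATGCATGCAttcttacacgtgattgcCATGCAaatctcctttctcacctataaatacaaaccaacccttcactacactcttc
CRU3: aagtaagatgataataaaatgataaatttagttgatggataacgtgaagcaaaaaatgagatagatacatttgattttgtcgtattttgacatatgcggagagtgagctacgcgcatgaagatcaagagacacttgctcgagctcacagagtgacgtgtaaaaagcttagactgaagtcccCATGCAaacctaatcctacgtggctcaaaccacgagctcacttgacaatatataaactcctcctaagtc
The motif was found 3 times in *SESA2*, 7 times in *SESA3* counting overlapping matches on both strands, and once in *CRU3*. It was in the windows of 11 of the 15 maturation genes called higher (73.3%) and of 1 of the 8 not called, beside 7.2% of the 18074 genes tested that have an annotated start. Among all 409 such genes called higher the share was 17.6%. The 15 and the 8 also differ in the kind of gene. The 15 include 7 albumins and cruciferins, 6 of them with the motif, and the 8 include *FAD2* and the regulators *LEC1*, *FUS3* and *ABI3*. The shares therefore cannot tell response from kind of gene. A match says only that these letters are present.

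Oil and its regulators rose with the storage proteins, by smaller amounts. *FAE1*, the elongase that makes very long chain fatty acids, had 1.82 and 3.54 RPKM in 3n *suvh7-1* against 0.148 and 0.140 RPKM in 3n (log2 fold change 3.43). *OLEO1*, an oil body protein, had 45.6 and 54.7 RPKM against 11.9 and 7.20 RPKM (2.42), and *L1L*, a subunit of a nuclear factor Y related to LEC1, had 13.9 and 17.0 RPKM against 4.61 and 2.87 RPKM (2.05). *WRI1*, the factor that switches on fatty acid synthesis, had 75.7 and 81.9 RPKM against 39.2 and 36.0 RPKM (1.07). The adjusted p of these 4 genes ran from 3.23e-04 to 0.00226. All 4 stayed below the diploid seeds, in which *FAE1* had 84.6 and 57.9 RPKM, *OLEO1* 175 and 75.8 RPKM, *L1L* 132 and 93.8 RPKM and *WRI1* 192 and 178 RPKM. Of the master regulators of maturation, only *LEC2* was called (1.17), while *LEC1* (0.95), *FUS3* (0.96) and *ABI3* (0.67) passed the adjusted p but not the fold threshold. *FAD2*, the list member with the highest level, had 593 and 520.4 RPKM against 505 and 581 RPKM and was not called (0.04, adjusted p = 0.884). The count of 15 was 11 without the second 3n *suvh7-1* library, when *LEC2* and the oleosins *OLEO2*, *OLEO3* and *OLEO4* lost their calls, and 12 without the second 3n library, when the same oleosins did. Of 10 tested embryo markers 2, *WOX9* and *TMO7*, rose and 0 fell, beside 2.26% of all genes tested higher. *LEC1*, which is on both lists, with 111 and 126 RPKM in 3n *suvh7-1* against 72.1 and 51.7 RPKM in 3n, made up most of the embryo sum. In 3n *adm-2*, where storage levels were similar, the embryo sum was 123 and 128 RPKM, but *WOX9* had 4.02 and 4.26 RPKM and *TMO7* 0.685 and 0.950 RPKM. The embryo sum was highest in 2n, at 171 and 176 RPKM, where *CRU3* was near 0. The part of embryo content in the change was not tested.

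Genes of cytokinesis rose in the same libraries. *KN* (*KNOLLE*), the syntaxin that fuses vesicles at the cell plate, had 161 and 169 RPKM in 3n *suvh7-1*, against 41.8 and 26.9 RPKM in 3n (log2 fold change 2.30 ± 0.20, adjusted p = 1.46e-04). The groups were well apart, and 2n seeds were higher still at 289 RPKM in both libraries. Increases were also called for the kinesin *HIK*, the microtubule bundling protein *PLE* (1.13) and the mitotic cyclins *CYCB2;2* (1.16) and *CYCB1;3* (1.04). Of the remaining 19 tested members none was called, but the mean was higher in 20 of 24, and the list median was 0.66 against -0.04 over all genes. Secretion and callose genes of the same list stayed level: *KEU* had 18.0 and 18.2 RPKM against 17.8 and 19.4 RPKM, and *GSL8* 27.0 and 27.4 RPKM against 27.2 and 29.0 RPKM. The rank product called none of the 5, and with a pseudocount of 1 limma called 2. Compared with 3n *adm-2* limma called no member of the list, beside 0.314% of all genes tested higher and 2.92% lower. Of the list, 4 members had an unadjusted limma p under 0.05, and *KN* was 0.66 higher in 3n *suvh7-1* (adjusted p = 0.0472). Against 3n *peg2*, 9 of 24 members were higher, beside 2.46% of all genes tested.

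**Figure D3:**
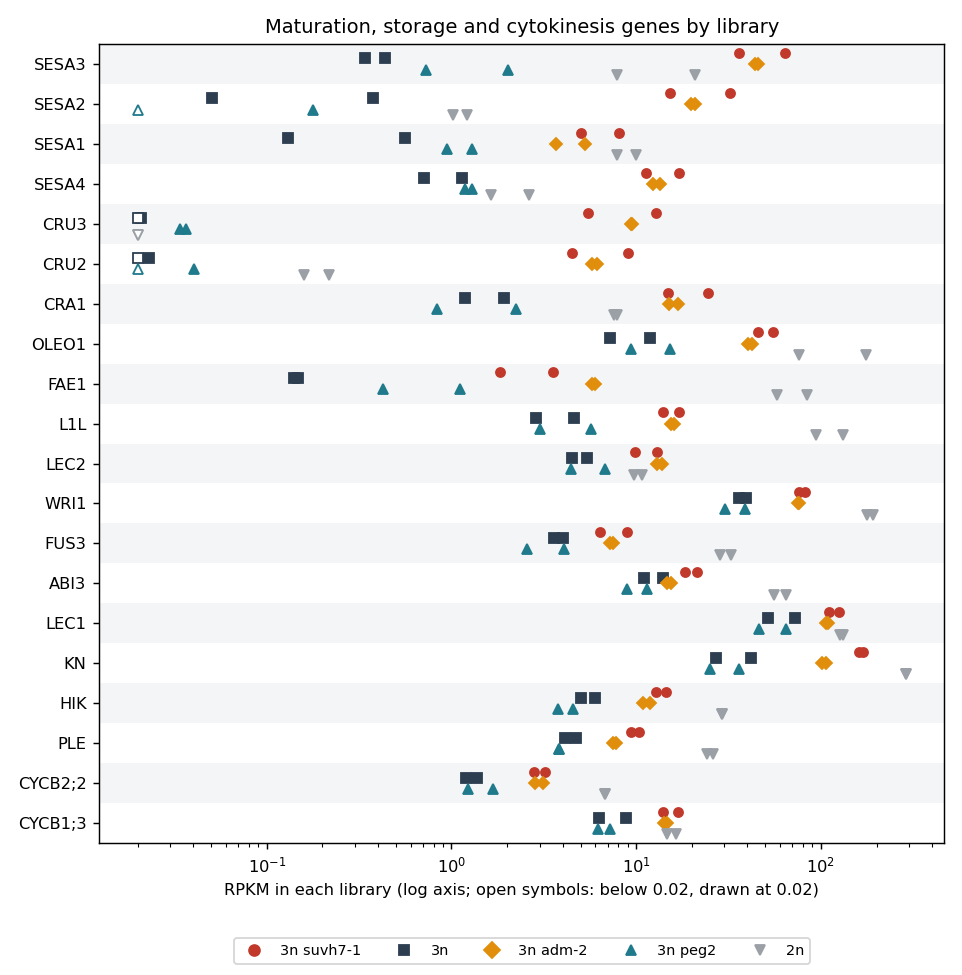
RPKM of maturation, storage and cytokinesis genes in each of the 10 libraries, on a log axis, 2 symbols a group, with values under 0.02 RPKM drawn open at 0.02. The 3n *suvh7-1* libraries (circles) lie right of the 3n libraries (squares) in all 20 genes drawn, and for the storage genes *SESA2*, *SESA3*, *SESA4*, *CRU2*, *CRU3* and *CRA1* also right of the 2n libraries (downward triangles).

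Among 16 *PEGs*, which are *ADM* and those whose mutants the study examined, 13 passed the filter, limma called 6 lower and 0 higher, and the median log2 fold change was -0.87. *SUVH7* is 1 of the 6, and the rank product called none of them. *SUVH7*, *PEG2* and *ADM*, with means under 1 RPKM in 3n *suvh7-1*, passed the filter through their 3n libraries. *PEG2* had 0.646 and 0.605 RPKM in 3n *suvh7-1* against 3.54 and 4.10 RPKM in 3n (log2 fold change -2.43 ± 0.37, adjusted p = 0.00218). *HDG10*, a homeodomain protein, had 1.24 and 1.01 RPKM against 4.42 and 5.06 RPKM (-1.99 ± 0.20, adjusted p = 2.76e-04). *PEG7*, a protein kinase, had 2.35 and 1.90 RPKM against 7.34 and 8.97 RPKM (-1.89 ± 0.21, adjusted p = 4.34e-04). In all 3 genes the 3n *suvh7-1* libraries were well below the 3n libraries and above the 2n libraries, in which each had under 0.1 RPKM. *ADM* (*ADMETOS*), whose loss also acts on triploid seeds, had 0.758 and 0.706 RPKM against 2.42 and 4.01 RPKM (-1.95, adjusted p = 0.0109), and was no longer called without the second 3n *suvh7-1* library (-1.91), without the second 3n library (-1.60) or with a pseudocount of 0.01 (-2.07). *YUC10*, a flavin monooxygenase of auxin synthesis, had 4.67 and 5.36 RPKM against 11.2 and 12.7 RPKM (-1.24).

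The other *PEGs* changed less or were too low to test. *PEG6* (-0.87, adjusted p = 0.00584) and the chromatin remodeler *PKR2* (-0.55, adjusted p = 0.0169) passed the adjusted p without passing the fold threshold. *PEG1* (-0.74), *PEG3* (-0.54), *PEG5* (-0.37) and *FXG1* (-0.46) missed both, with adjusted p from 0.0508 to 0.0809. *VIM5*, a homolog of the VIM proteins that bind methylated DNA, had the highest level of the list at 22.5 and 26.4 RPKM in 3n *suvh7-1* and 23.6 and 24.6 RPKM in 3n (0.02, adjusted p = 0.939). *PEG4*, *PEG8* and *PEG9* lay below the filter. *PEG4* averaged 0.0329 ± 1.91e-04 RPKM in 3n *suvh7-1* and 0.829 ± 0.670 RPKM in 3n (SD, n = 2 each), *PEG8* had 0.419 and 0.594 RPKM against 0.877 and 1.42 RPKM, and *PEG9*, a galactose mutarotase, averaged 0.142 ± 0.0730 RPKM in 3n *suvh7-1* and 1.18 ± 0.118 RPKM in 3n (SD, n = 2 each). Set directly against the other mutants, *HDG10* (-1.57, adjusted p = 8.12e-04), *PEG7* (-1.71, adjusted p = 6.50e-04) and *ADM* (-1.65, adjusted p = 0.0241) were lower in 3n *suvh7-1* than in 3n *peg2*, and *PEG7* was lower than in 3n *adm-2* (-1.35, adjusted p = 0.00522).

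Type I MADS-box genes encode transcription factors, many of them active in the endosperm before its walls form. In the M-gamma class 3 of 9 tested genes and in the M-alpha class 5 of 10 were lower, 0 were higher, and the medians were -0.46 and -1.26. The filter left out 5 of 14 M-gamma and 8 of 18 M-alpha genes. *AGL36*, *AGL48*, *AGL57*, *AGL58*, *AGL59* and *AGL64*, with means under 1 RPKM in 3n *suvh7-1*, passed it through their 3n libraries. The shares and medians are therefore descriptions of the genes that passed. *AGL62*, a repressor of cellularization, had 1.90 and 1.84 RPKM in 3n *suvh7-1* against 4.49 and 8.22 RPKM in 3n (log2 fold change -1.65 ± 0.27, adjusted p = 0.00302). *AGL96* had 5.81 and 2.76 RPKM against 34.9 and 40.6 RPKM (-3.20 ± 0.30, adjusted p = 1.76e-04), and *AGL36* had 0.491 and 0.266 RPKM against 1.67 and 3.64 RPKM (-2.47 ± 0.39, adjusted p = 0.00250). The 2 groups lay apart in each. *AGL64* (-4.19) and *AGL58* (-4.12) were among the 10 largest losses of all genes, from levels of 2.24 to 9.11 RPKM in 3n. *AGL59* (-2.81), *AGL57* (-2.82) and *AGL48* (-2.26) completed the calls. *AGL58* and *AGL59* are 95.1% identical over their aligned bases, with an identical run of 77 bases, so their values may share reads, and *AGL57* was not called without the second library of either group, at -1.83 without that of 3n *suvh7-1* and -2.23 without that of 3n.

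Loss was uneven within the family. *PHE1*, a paternally expressed M-gamma gene, had 101 and 98.0 RPKM in 3n *suvh7-1* against 133 and 135 RPKM in 3n, lower by a small amount (-0.43 ± 0.09, adjusted p = 0.00921), and 2n seeds had 0.909 and 0.749 RPKM. Its tandem copy *PHE2*, which shares an identical run of 120 bases with it, was not called (-0.27, adjusted p = 0.396). *AGL87*, the M-gamma gene with the highest level, had 152 and 184 RPKM against 128 and 127 RPKM (0.39, adjusted p = 0.0670). Of the M-beta class 1 of 19 genes passed the filter and it was not called. In direct comparisons 3 M-gamma and 4 M-alpha genes were lower in 3n *suvh7-1* than in 3n *adm-2*, where 2.92% of all genes were lower and 0.314% higher, and 3 and 5 were lower than in 3n *peg2*, where 1.88% were lower and 2.46% higher. *AGL96* was lower than in 3n *adm-2* by 2.26 on the log2 scale (adjusted p = 0.00324) and than in 3n *peg2* by 3.51 (adjusted p = 1.14e-04).

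Of 10 tested genes of endosperm growth and signalling 4 were lower and 0 higher, while the signs were even, with 5 positive and 5 negative, and the median was -0.13. *MINI3*, a WRKY factor of the pathway that sets seed size, had 0.512 and 0.0619 RPKM in 3n *suvh7-1* against 1.69 and 3.65 RPKM in 3n (log2 fold change -3.04 ± 0.57, adjusted p = 0.00716). *CKX2*, a cytokinin oxidase, had 17.4 and 10.9 RPKM against 36.1 and 39.6 RPKM (-1.45 ± 0.20, adjusted p = 0.00128). *ESF1.2*, from a family of small cysteine-rich peptides that signal to the suspensor, had 17.6 and 16.5 RPKM against 83.5 and 97.3 RPKM (-2.40 ± 0.16, adjusted p = 4.98e-05). All 3 had under 1 RPKM in 2n. *CKX2* and *ESF1.2* were far lower there than in 3n *suvh7-1*. For *MINI3* the difference of 3n *suvh7-1* from 2n did not pass the test (1.47 ± 0.57, limma adjusted p = 0.0595). *MINI3*, with a mean of 0.287 RPKM in 3n *suvh7-1*, passed the filter through its 3n libraries. Without the second 3n library the calls of *MINI3* and *ESF1.3* were lost (-2.50 and -0.78), which left 2 of the 4. *ICE1*, a partner of the endosperm breakdown factor ZHOUPI, was the member with the highest level, with 112 and 127 RPKM against 79.4 and 81.8 RPKM (0.57, adjusted p = 0.00317), and *ZOU* itself had 10.4 and 10.6 RPKM against 7.05 and 7.53 RPKM (0.52, adjusted p = 0.00299). Neither reached the fold threshold. The imprinted gene *FWA*, which is expressed from the maternal copy, was lower at 8.98 and 8.97 RPKM against 18.2 and 20.5 RPKM (adjusted p = 0.00145).

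**Figure D4:**
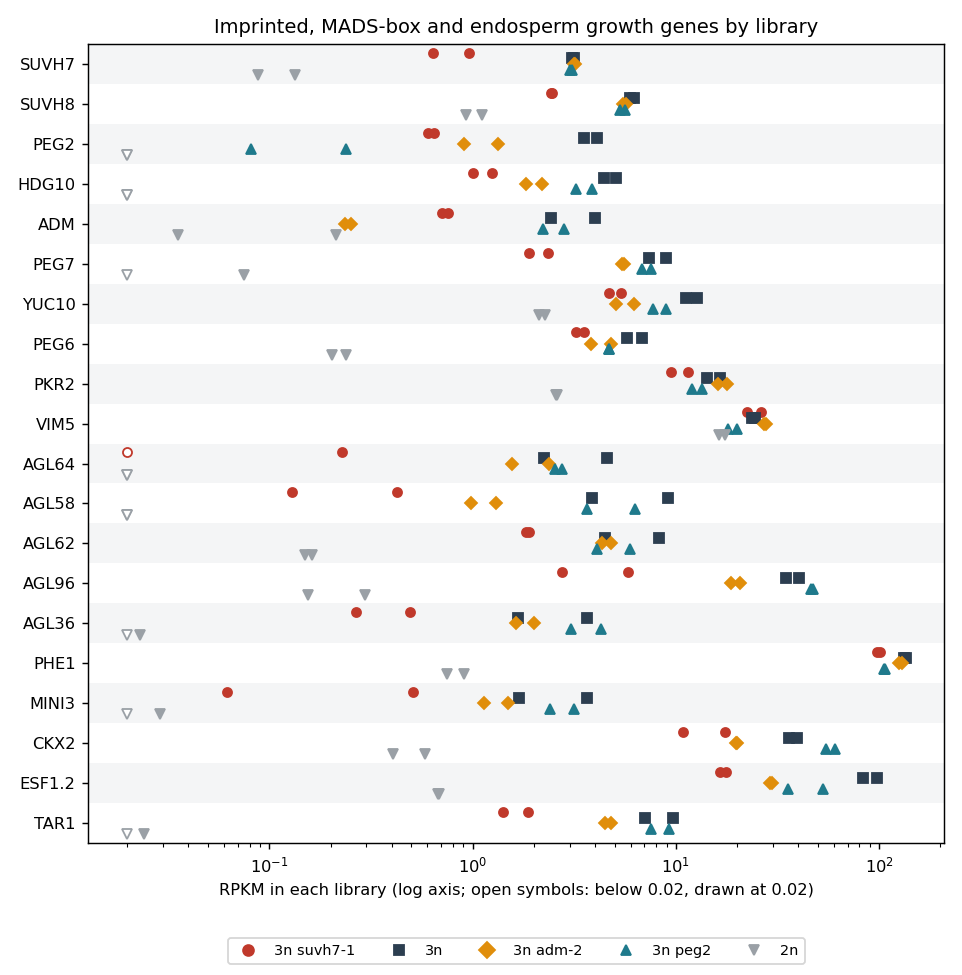
RPKM of imprinted, MADS-box and endosperm growth genes in each of the 10 libraries, on a log axis, 2 symbols a group, with values under 0.02 RPKM drawn open at 0.02. Except in *VIM5*, the 3n *suvh7-1* libraries (circles) lie left of the 3n libraries (squares) and right of the 2n libraries (downward triangles) in most genes, and *PHE1* moves least of the MADS-box genes drawn.

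Of 23 tested hormone genes 1 was higher (4.35%) and 4 were lower (17.4%), and of 21 import genes 1 was called in each direction (4.76%), beside 2.26% and 2.27% of all genes tested. *GA20OX3*, a gibberellin synthesis enzyme, had 25.1 and 31.0 RPKM in 3n *suvh7-1* against 1.89 and 1.27 RPKM in 3n (log2 fold change 4.08 ± 0.37, adjusted p = 1.62e-04), and 2n seeds had 230.2 and 225 RPKM. *GA3OX4*, of the next step, moved the other way, with 1.61 and 1.97 RPKM against 4.77 and 7.64 RPKM (-1.71 ± 0.22, adjusted p = 7.71e-04), and it was also lower than in the diploid seeds, of which the lower library had 6.41 RPKM (limma adjusted p = 5.94e-05). *TAR1*, a tryptophan aminotransferase relative in auxin synthesis, had 1.88 and 1.41 RPKM against 7.04 and 9.71 RPKM (-2.28 ± 0.21, adjusted p = 1.85e-04). With *YUC10*, that made 2 auxin synthesis genes lower, and *CKX2* is the fourth hormone gene. *AAP8*, an amino acid permease, had 5.01 and 4.69 RPKM against 19.2 and 20.8 RPKM (-2.02 ± 0.11, adjusted p = 1.95e-05). *UMAMIT24*, an amino acid exporter, had 6.75 and 6.03 RPKM against 3.41 and 1.72 RPKM (1.36, adjusted p = 0.0473), a call that was lost when either 3n *suvh7-1* library (1.28 and 1.44) or the second 3n library (0.89) was left out. *SWEET10*, the import gene with the highest level, was not called (-0.16, adjusted p = 0.250).

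In the pectin lists more tested genes were called lower than higher. Pectin is the gel of the cell wall, pectin methylesterases expose its acid groups, and polygalacturonases and pectate lyases cut its backbone. In 3n *suvh7-1*, 21 of 66 tested genes of the pectin methylesterase and inhibitor superfamily were lower and 4 higher (median -0.30). Of 45 pectin lyase-like genes, polygalacturonases included, 8 were lower and 3 higher (median -0.10). That list goes by annotated product and also holds *QRT1*, a pectin methylesterase. The filter left out 57 of 123 and 64 of 109 members. *AT3G17140*, *VGDH1*, *AT3G05610*, *AT3G07820*, *PGA4* and *AT3G01270*, with means under 1 RPKM in 3n *suvh7-1*, passed it through their 3n libraries. The shares and medians therefore describe the genes that passed. A separate list held the 6 genes whose annotated product names a pectate lyase. The 1 of them that passed the filter, *AT3G01270*, was lower (-3.26, limma adjusted p = 0.00745), but not without the second 3n *suvh7-1* library (-2.91). Any pectate lyase annotated only as pectin lyase-like was counted in the pectin lyase-like list instead, so this gene does not stand for all pectate lyases. *AT3G17140*, of the inhibitor superfamily, had the largest loss of all genes called, with 0.377 and 0.160 RPKM against 16.6 and 21.8 RPKM in 3n (-5.76 ± 0.31, adjusted p = 1.95e-05). It was also lower than in 3n *adm-2* (-3.41, adjusted p = 0.00118) and 3n *peg2* (-2.42, adjusted p = 7.79e-04). The count of 8 pectin lyase-like genes was 4 without the second 3n *suvh7-1* library, 5 without the first 3n library and 9 without the second, and the 3 higher ones were 1 without the second 3n library, 2 without the second 3n *suvh7-1* library and 5 without the first 3n library.

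The genes that fell differed in their levels in 3n *peg2*. Of the 21 lower genes of the pectin methylesterase superfamily, 12 were also lower in 3n *suvh7-1* than in 3n *peg2*, as were 2 of the 8 pectin lyase-like genes. This was also so for 5 of 5 lower M-alpha genes and 4 of 6 lower *PEGs*. Both comparisons use the same 3n *suvh7-1* libraries, so genes picked for low values there are favoured in the second one. Over all genes tested 1.88% were lower than in 3n *peg2*. The share over all 412 lower genes was not computed, so these counts cannot be read as a trait of any of these families. *AT4G32380*, annotated to the pectin lyase superfamily, had 6.11 and 1.63 RPKM in 3n *suvh7-1* against 21.4 and 32.5 RPKM in 3n. Its levels were 47.8 and 38.2 RPKM in 3n *peg2* and 0.216 and 0.248 RPKM in 2n. In 3n *suvh7-1* this gene was lower than in 3n *peg2* by 3.71 on the log2 scale (limma adjusted p = 6.63e-04). *AT3G07820* (0.730 and 0.310 RPKM against 9.64 and 6.10 RPKM in 3n, -3.74) and the polygalacturonase *PGA4* (0.672 and 0.502 RPKM against 11.4 and 6.61 RPKM, -3.69) were instead low in 3n *peg2* as well, and the differences from 3n *peg2* did not pass the test (-0.80, adjusted p = 0.320, and -0.61, adjusted p = 0.594). The same held for *VGDH1* (-0.32, adjusted p = 0.802), *AT3G05610* (-0.27, adjusted p = 0.771) and *AT3G01270* (-0.37, adjusted p = 0.754). *VGDH1* had 0.395 and 0.261 RPKM in 3n *suvh7-1* against 5.30 and 2.00 RPKM in 3n. Its call was lost without any 1 of 3 libraries: either of 3n *suvh7-1* (-3.22 and -2.76) or the first of 3n (-2.31).

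*VGD1*, a pollen tube pectin methylesterase 87.9% identical to *VGDH1*, had 0.898 and 0.564 RPKM in 3n *suvh7-1* against 9.42 and 2.91 RPKM in 3n (-2.72, adjusted p = 0.0382), and lost its call without either 3n *suvh7-1* library (-3.01 and -2.42) or the first of 3n (-1.89). Of 24 pollen and pollen tube markers, 8 passed the filter, 2 were lower (*VGD1* and *VGDH1*) and 1, *MYB101*, higher, and without either 3n *suvh7-1* library or the first of 3n 0 were lower. The summed level of the 24 was 159 and 147 RPKM in 3n *suvh7-1* and 184 and 191 RPKM in 3n, carried by *LLG2* and *TUA1*, which were not called, and *DUO1* was at 0 in all libraries. In 2n *PGA4* was uneven in the same way, at 0.196 and 1.65 RPKM, and *VGD1* at 0.153 and 1.11 RPKM. The part of residual pollen in these losses was not tested.

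Other wall genes fell, some of them from high levels. The expansins *EXPA21*, *EXPA23* and *EXPB4*, which loosen cell walls and were named after their values were seen, are examples. Of 18 tested expansins 4 were lower, 1 was higher and 13 were not called (median -0.04), beside 2.27% of all genes tested lower. *EXPB4* had 1.68 and 0.417 RPKM in 3n *suvh7-1* against 8.98 and 9.31 RPKM in 3n (-3.27). *EXPA21* had 157 and 79.7 RPKM in 3n *suvh7-1* against 503 and 613 RPKM in 3n (-2.31 ± 0.27, adjusted p = 5.23e-04). *EXPA23* had 95.9 and 45.9 RPKM against 334 and 426 RPKM (-2.51), and its copy *EXPA25*, identical over a run of 248 bases, changed by -2.30. *BG1*, a beta-1,3-glucanase, had 17.5 and 9.23 RPKM against 57.7 and 79.3 RPKM (-2.40 ± 0.41, adjusted p = 0.00401). In each of these the first 3n *suvh7-1* library was the higher of the 2, both were below 3n, and the mean of 3n *peg2* was above that of 3n.

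The wall genes that rose were fewer. *AT3G12880*, of the inhibitor superfamily, had 82.8 and 92.0 RPKM in 3n *suvh7-1* against 19.7 and 13.3 RPKM in 3n (2.42 ± 0.17, adjusted p = 5.41e-05), *AT2G01610* 11.1 and 10.9 RPKM against 1.55 and 0.711 RPKM (3.26), and the pectin lyase-like *AT2G43870* 6.83 and 5.69 RPKM against 0.937 and 0.451 RPKM (3.07). *QRT1*, a pectin methylesterase that acts in separating pollen grains, had 16.1 and 16.4 RPKM against 7.65 and 5.02 RPKM (1.37, adjusted p = 0.00560) and was not called without the second 3n library (1.07). *AT4G15750*, the family member with the highest level, had 2424 and 2191 RPKM against 2082 and 2892 RPKM and was not called (-0.09, adjusted p = 0.771).

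**Figure D5:**
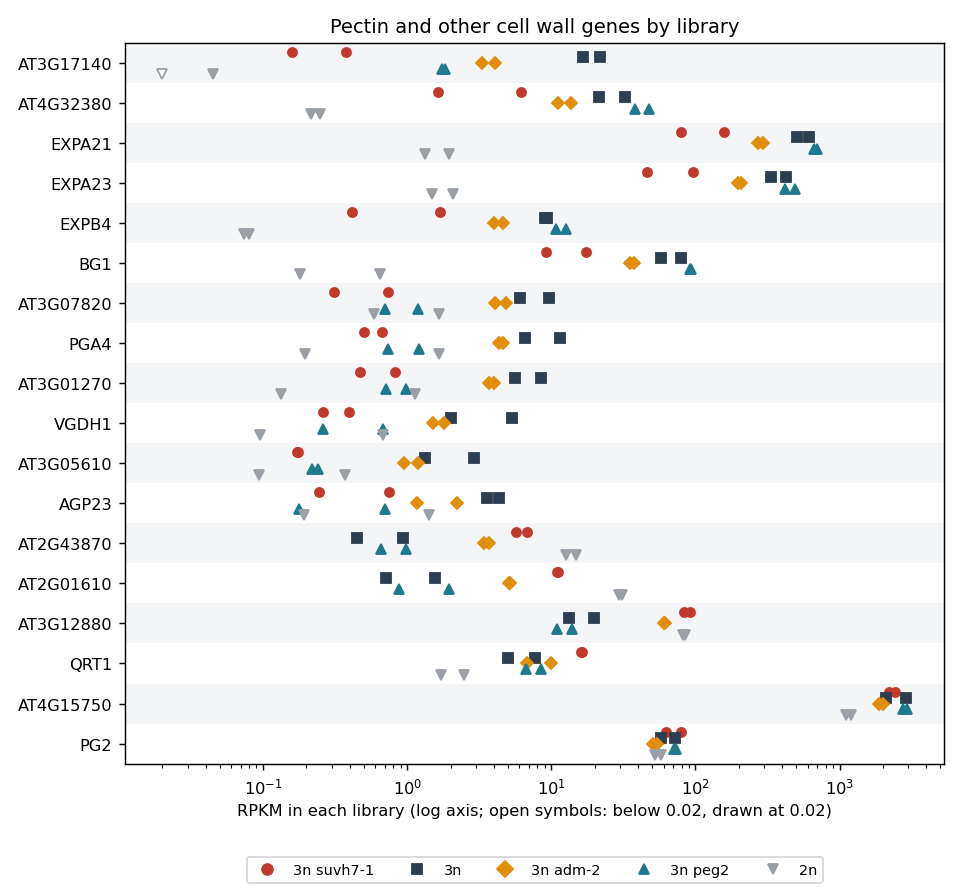
RPKM of pectin and other cell wall genes in each of the 10 libraries, on a log axis, 2 symbols a group, with values under 0.02 RPKM drawn open at 0.02. *AT4G32380*, the expansins and *BG1* are high in 3n *peg2* (upward triangles), whereas *AT3G07820*, *PGA4* and the genes down to *AGP23* are low in 3n *peg2* as in 3n *suvh7-1* (circles).

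Chromatin genes were examined because *SUVH7* belongs to them by its domains. Of the 14 tested SUVH and SUVR genes 2 were lower, *SUVH7* and *SUVH8*. *SUVH8* (chr2:10529690-10531957) had 2.45 and 2.44 RPKM in 3n *suvh7-1* against 5.96 and 6.23 RPKM in 3n (log2 fold change -1.28 ± 0.12, adjusted p = 1.90e-04), and was lower than in 3n *adm-2* (-1.16, adjusted p = 0.00171) and 3n *peg2* (-1.13, adjusted p = 3.03e-04) as well. *SUVH7* (chr1:6120741-6122822) and *SUVH8* lie on different chromosomes and their gene sequences are 81.0% identical, with a longest identical run of 42 bases. Sharing of reads between them was not tested. The other 12 genes had log2 fold changes of -0.20 to 0.25, and *SUVH9*, the family member with the highest level, had 16.3 and 15.3 RPKM against 17.0 and 19.5 RPKM. None of 31 tested genes of DNA methylation and demethylation was called by limma or the rank product, although 27 had a positive log2 fold change (median 0.15, highest 0.89) and 12 an unadjusted limma p under 0.05. Neither method called any of 11 Polycomb and CHD3 genes (median 0.04, 3 at an unadjusted p under 0.05), 41 histone genes (0.14 and 15) or 13 transposable element genes (0.12 and 5). An unadjusted limma p under 0.05 was also found for 94 of 420 tested genes within 1 Mb of *SUVH7* and 85 of 388 within 1 Mb of *OSD1*. The share over all genes tested was not computed, so the counts at an unadjusted p are not read as a trend of a list. At 2.26% called higher and 2.27% called lower over all genes tested, few or no calls in lists of this size are near the background. Of 64 photosystem genes 1, *LHCB2.3*, was higher (1.14, adjusted p = 0.0252), a call that was lost without either 3n *suvh7-1* library (1.31 and 0.98) or the second 3n library (0.82).

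Position near the 2 introduced loci was also examined, since linked segments travel with a mutation. Within 1 Mb of *SUVH7*, 10 of 420 tested genes were higher (2.38%) and 1 was lower (0.238%), beside 2.26% and 2.27% of all genes tested, and with a pseudocount of 1 there were 6 higher. *TET11*, a tetraspanin, changed most there, with 3.95 and 5.45 RPKM in 3n *suvh7-1* against 0.852 and 0.514 RPKM in 3n (2.63 ± 0.25, adjusted p = 2.07e-04). Within 1 Mb of *OSD1*, whose flanks may differ in origin from Col in all triploid groups, 3 of 388 genes were higher (0.773%) and 8 lower (2.06%), the largest changes being those of *AT3G55677* (-4.23), of the S1 self-incompatibility family, and *CSY1* (3.84), a citrate synthase. The 3 higher genes became 6 without the first 3n *suvh7-1* library, 7 without the first 3n library and 2 without the second, and the 8 lower ones became 5 without the first 3n library.

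The direct comparisons with the other mutants set the size of these changes beside theirs. Between 3n *suvh7-1* and 3n *adm-2*, 588 genes differed, 57 of them higher (0.314%) and 531 lower (2.92%) in 3n *suvh7-1*. No member of the maturation list (3 of 23 at an unadjusted limma p under 0.05) or the cytokinesis list was among them. That p was reached by 139 of 420 tested genes within 1 Mb of *SUVH7* and 140 of 388 within 1 Mb of *OSD1*. With such small shares called over all genes tested, no call in lists of this size is near the background. Between 3n *suvh7-1* and 3n *peg2*, 788 genes differed, 446 higher (2.46%) and 342 lower (1.88%). Of 23 tested maturation genes 17 were higher. Of 66 tested pectin methylesterase superfamily genes 13 were lower and 3 higher. Of 13 tested *PEGs* 5 were lower, among them the disrupted *SUVH7* and *FXG1*, which was not called against 3n. *PEG2*, disrupted in 3n *peg2*, was the 1 that was higher. These comparisons share the 3n *suvh7-1* libraries with each other.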

How the data were processed

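Seeds of 5 crosses were sequenced as RNA libraries, 2 per cross. After trimming, the authors aligned reads with TopHat 2.0.10 against TAIR10, with each read allowed no more than 1 alignment. They deposited RPKM values for 33602 genes. The tool that computed RPKM, and whether it used strand, are not given in the sources used here, and absolute depth cannot be recovered from these values. Of these genes, 32835 matched the TAIR10.1 annotation by locus.

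Values were analysed as log2(RPKM + 0.1) for 18159 genes whose mean over the 4 libraries of 3n *suvh7-1* and 3n reached 1 RPKM. Limma 3.58.1 in R 4.3.3, with a moderated variance that follows mean level, was fitted to all 10 libraries, with Benjamini-Hochberg adjustment over all genes tested. The rank product method was written anew in Python 3.11.15, with 100 permutations, and called genes past a log2 fold change of 1 whose estimated share of false calls was under 0.05. Both were tested on simulated data. The promoter of *CRU2* is not reported here. Named genes were *SUVH7*, *OSD1*, all *PEGs*, the 10 largest changes in each direction, and of each list up to 4 called genes per direction and the one with the highest level. All other genes named were chosen after their values were seen: in the report *SESA1*, *SESA4*, *CRA1*, *FAE1*, *L1L*, *OLEO1* to *OLEO4*, *WRI1*, *LEC1*, *LEC2*, *FUS3*, *ABI3*, *WOX9*, *TMO7*, *CYCB1;3*, *KEU*, *GSL8*, *AGL62*, *PHE1*, *PHE2*, *ZOU*, *FWA*, *VGD1*, the other pollen markers, the expansins and *ENODL3*, and in the closing observations all but *AT1G32280*, *AT1G62214* and *AT3G55677*. The members and lists were chosen with earlier results of these data known. Alternatives were other pseudocounts, no filter, size factors, fewer libraries and a replicate block, and the counts of list members under these settings were added after seeing the data.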

Additional observations from a re-analysis of the deposited data

How the results depend on the processing

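No called gene that is named changed sign under any alternative, and 36 of 38 recomputed counts of called genes stayed within 1.5 times. The exceptions were the genes lower in 3n *suvh7-1* than in 3n by limma, 750 when all genes above 0 in at least 2 libraries were tested, by construction a longer list, and the genes that differ between 3n *suvh7-1* and 3n *adm-2*, 343 with a pseudocount of 1, where the cause was not tested. Leaving out 1 library gave 310 to 479 genes higher and 306 to 437 lower. Of 152 named genes with a value, 35 lost or gained their call under at least 1 alternative, and 5 that were never called changed sign around 0: with 1 library left out, *VIM5* ran from -0.10 to 0.13 and was -0.01 without the first 3n library, *FAD2* ran from -0.06 (without the first library of either group) to 0.14, *PG2* from -0.04 to 0.31 and was -0.03 without the first 3n library, *AGL49* from -0.47 to 0.01 and *AT4G15750* from -0.33 to 0.15. The cause was not tested. Replicate numbers do not pair the samples: same-numbered libraries of 3n *suvh7-1* and 3n had deviations with r of -0.084, and with a replicate block limma called 404 genes higher and 401 lower and the rank product 88 and 108. With 2 libraries a group and RPKM alone, small changes of genes near 1 RPKM were not detectable.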

Other observations

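Calls beyond the lists were found in families of small secreted proteins, which were picked from the annotated products after the values were seen, so their counts are descriptions, to be read beside 2.26% of all genes tested higher and 2.27% lower. Of 15 tested early nodulin-like proteins, which are copper-protein relatives anchored to the cell surface, 6 were higher in 3n *suvh7-1* and 0 lower. *ENODL3* had 451 and 442 RPKM in 3n *suvh7-1* against 61.6 and 38.2 RPKM in 3n (log2 fold change 3.20, limma adjusted p = 1.46e-04), and *ENODL14* 200.3 and 209 RPKM against 42.1 and 26.6 RPKM (2.61, adjusted p = 1.59e-04). Both were above all 3n and 3n *peg2* libraries. The lipid-transfer and 2S albumin superfamily was mixed, with 8 of 38 tested members higher and 4 lower. The filter left out 8 of 23 early nodulin-like members and 80 of 118 of this superfamily. A trio of neighbours on chromosome 5 was higher: *AT5G38170* had 964 and 1325 RPKM against 329 and 229 RPKM (2.04), *AT5G38160* 811 and 1143 RPKM against 252 and 192 RPKM (2.13), and *AT5G38180* 201 and 259.7 RPKM against 58.9 and 42.7 RPKM (2.18).

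The ECA1 gametogenesis related family, small cysteine-rich proteins, had 12 of 15 tested members lower and 2 higher, and 7 rather than 12 lower without the second 3n library or 8 without the second 3n *suvh7-1* library. *AT5G51105* had 707 and 723 RPKM in 3n *suvh7-1* against 1351 and 2040 RPKM in 3n (-1.22, adjusted p = 0.00105), and was not called without the second 3n library (-0.92). A cluster on chromosome 3 held *AT3G01329*, with 56.9 and 55.2 RPKM against 227 and 318 RPKM (-2.26), and *AT3G01327*, with 45.8 and 43.5 RPKM against 144 and 187 RPKM (-1.87). Members of the cluster were nearly absent in 2n, where *AT3G01329* had 1.02 and 0.551 RPKM. The plant self-incompatibility protein S1 family was split, with 11 of 25 tested members lower (6 without the second 3n library) and 4 higher. *AT1G26796* and *AT1G26797*, neighbours on chromosome 1, rose (1.69 and 1.47), while *AT3G55677* had 0.307 and 0.183 RPKM against 5.31 and 7.42 RPKM. The filter left out 66 of 81 ECA1 and 40 of 65 S1 family members, and *AT3G55677* passed it through its 3n libraries. The counts of both families therefore describe only the members that passed.

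The gene with the largest increase of all, *AT1G32280*, of the lipid-transfer and 2S albumin superfamily, had 61.9 and 59.7 RPKM in 3n *suvh7-1* and 0.275 and 0.0903 RPKM in 3n (7.83 ± 0.24, adjusted p = 6.90e-07). It was as high in 3n *adm-2* (69.4 and 64.3 RPKM) and 3n *peg2* (75.5 and 71.6 RPKM) and had 12.4 RPKM in both 2n libraries, so it was low in the 3n libraries alone. Another gene that is uneven within groups, *AT1G62214*, had 0.955 and 0.898 RPKM in 3n *suvh7-1* and 26.0 and 31.2 RPKM in 3n, but also 26.7 and 0.815 RPKM in 3n *peg2* and 18.9 and 2.07 RPKM in 2n, and its call (adjusted p = 0.0487) was lost when any 1 of the 4 libraries was left out, with log2 fold changes of -4.93 to -4.67. *RBCS3B*, a small subunit of Rubisco, had 33.1 and 28.7 RPKM against 77.3 and 86.1 RPKM (-1.40, adjusted p = 2.06e-04), whereas *RBCS1A* had 1193 and 1324 RPKM against 1247 and 1388 RPKM.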
